A study of Rattus norvegicus with 9 samples.

Results

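Integrins, laminins and syndecans, the receptors and basement membrane proteins through which heart cells attach to matrix, were measured in the right ventricle of rats after a sham operation or after pulmonary artery banding (PAB). The members were chosen by name alone. They are the numbered integrin alpha and beta subunits, the laminin alpha, beta and gamma chains and the syndecans 1 to 4, each taken from an array feature that carries a single gene symbol. This gave 27 genes of 29215 features, with 8 integrin alpha subunits, 8 integrin beta subunits, 7 laminin chains and 4 syndecans. Itga3, Itga8, Itga9, Lama2, Lama4 and Lamb1 also fit the name rule but are not analysed here, and integrin alpha subunits named by a letter lie outside it.

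The rats were male SD rats in 3 groups, with 3 Affymetrix Rat Gene 1.0 ST arrays in each. The sham group had the operation without banding, and the F- and F+ groups had PAB, in which a tie around the pulmonary artery makes the right ventricle pump against a higher pressure. The banded hearts were taken 4 weeks after the operation and divided by the fibrotic share of the tissue, with the F+ group above 6.5% and the F- group below. The sources used here give no age for these rats. They also leave unsaid whether each array stands for its own animal, so the p-values rest on array-to-array spread that may be technical.

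An integrin is a pair of an alpha and a beta subunit that spans the cell membrane, binds matrix outside the cell and ties it to the actin cytoskeleton inside. Laminins are trimers of an alpha, a beta and a gamma chain that build the basement membrane around each cardiomyocyte and vessel, and laminin-binding integrins hold the muscle cell to it. Syndecans are membrane proteoglycans whose heparan sulfate chains bind fibronectin, growth factors and laminin beside the integrins. In heart muscle these proteins carry force between the matrix and the sarcomere and are known to respond to pressure load.

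The authors deposited 1 signal value per feature and array, between 1 and 190.4, on a scale that is not stated. Differences below are differences of mean log2 deposited values, with their standard error (SE) and 95% confidence interval (CI). The square roots of the values run from 1 to 13.8, a range in which log2 array intensities usually lie. If the values were squares of log2 intensities, the folds given here would be too small, and for the leading genes the fold on that reading is given beside the first. Values of different features are not compared with each other, since each depends on its own probes.

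Some arrays stood apart in genes outside these families. Bmp10, an atrial growth factor, was 85.8 on sham array 2 and 15.5 to 18.9 on the other 8 arrays. F- array 1 had values near those of the F+ arrays in Nppa, which encodes atrial natriuretic peptide, at 155.6 against 37 and 43.6 on F- arrays 2 and 3, and sham array 2 was also high, at 135.8. Postn, which encodes periostin, a matrix protein of activated fibroblasts, was 86.7 on F- array 1 and 35.4 to 43.6 on the others of that group. Several of the leading results are therefore also given without F- array 1 or sham array 2. Tnnt2, which encodes cardiac troponin T and marks heart muscle of any chamber, gave 165.6 to 168.4 on all arrays. The source of the high atrial gene values on sham array 2 was not tested.

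**Figure D1:**
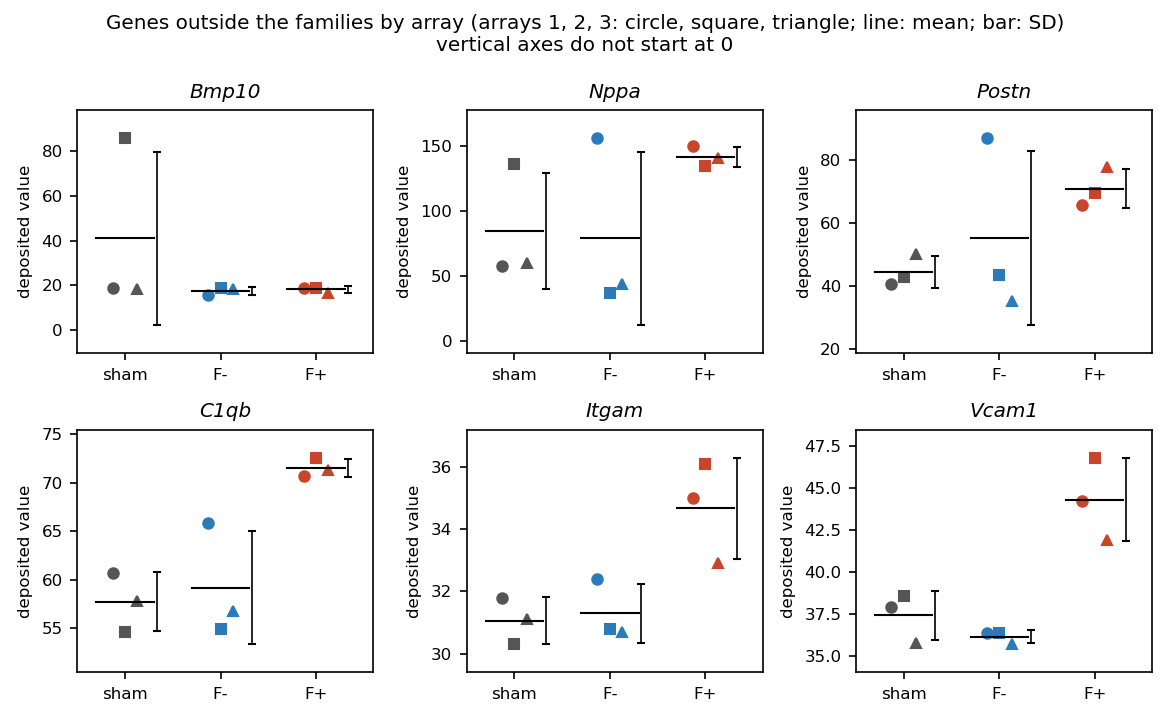
Deposited values (vertical axes, not starting at 0) of 6 genes outside the families on each array of the sham, F- and F+ groups. The symbol gives the array number (circle 1, square 2, triangle 3), a line the mean and a bar the SD. Bmp10 is high on sham array 2 alone at 85.8, and F- array 1 lies with the F+ arrays in Nppa and Postn but not in Vcam1.

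Between the F+ and F- groups, the family leaned towards higher values in fibrotic ventricles, led by Lama5, Itga2, Lamc1, Sdc1 and the leukocyte subunit Itgb2, but no single gene passed the test. Of the 27 genes, 22 had a higher mean in the F+ group, among them all 7 laminin chains, against 48.2% of all features and 49.5% of those with 1 symbol. The median difference was 0.040 over the 27 genes and -0.0023 over all features. With limma and Benjamini-Hochberg adjustment over all features, 0 of the 27 passed, where 0.00342% of all features did. At an unadjusted p under 0.05, 6 of the 27 had higher values and 0 had lower values, against 3.65% (4.43% of those with 1 symbol) and 3.76% of all features. These 6 were Lama5, Itga2, Lamc1, Sdc1, Itgb2 and Itgb3. The count was 3 without F- array 2, without F- array 3 or without F+ array 2, and 8 without F- array 1. Without F- array 1, 1524 of all 29215 features had higher values at that threshold. Shares over all features are not given for the other fits. The F+ arrays lay above all F- arrays in 6 of the 27, against 4.46% of all features and 5.40% of those with 1 symbol, and below them in 1, Itga6, against 5.28%. Lama5, Itga2, Lamc1, Sdc1, Sdc2 and Lamb3 were above all 6 other arrays, a pattern found in 1.70% of all features and 2.24% of those with 1 symbol. No gene was below all 6, where 1.84% of all features were.

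**Figure D2:**
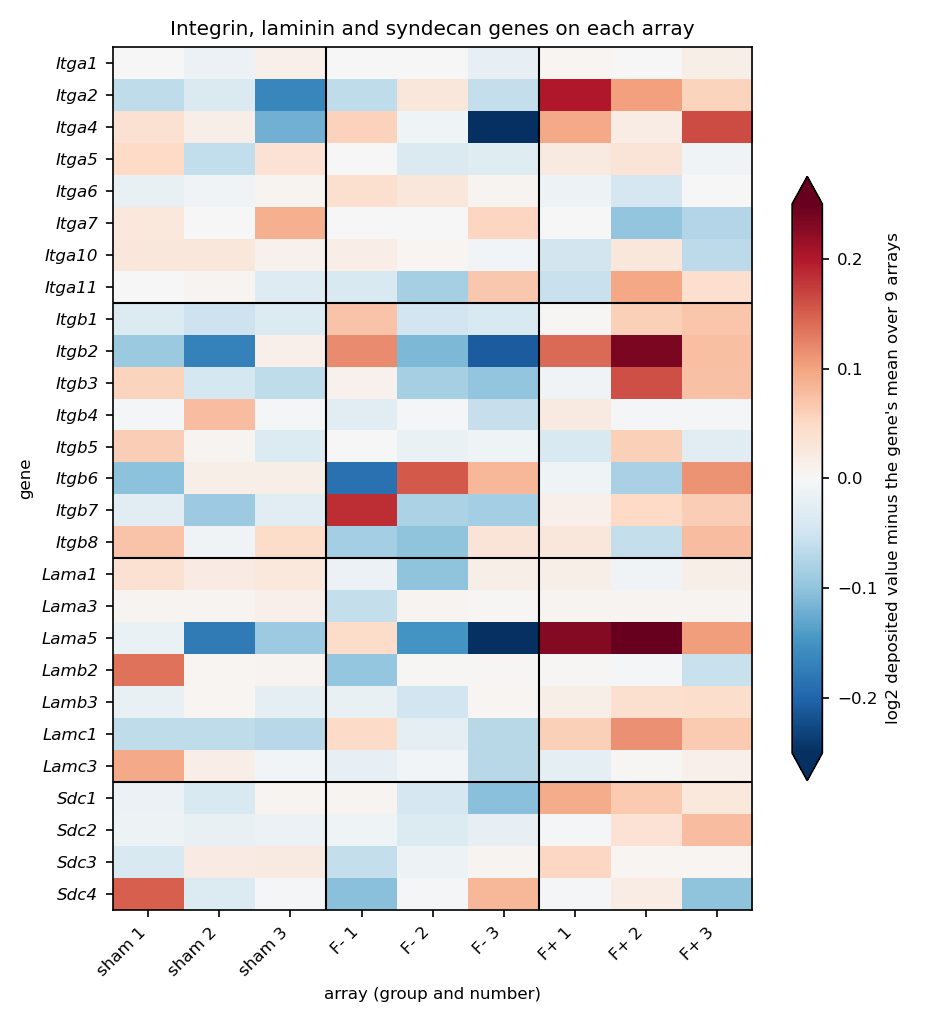
Each row is a gene and each column an array. The colour gives the log2 deposited value minus that gene's mean over the 9 arrays, with the ends of the scale at 0.25 in either direction. The rows of Lama5, Itga2, Lamc1 and Sdc1 are warm on all F+ arrays, and F- array 1 is warm in Itgb7, Itgb2 and Itgb1.

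The stretches upstream of 5 of the 6 genes with F+ arrays above all other arrays are shown to place the genes on the rat assembly GRCr8 and to show the bases before their starts. Promoter entries from RefSeq were found for 20 of the 27 genes, and not for Sdc2. Each line gives the 250 bases before the start of the gene, read along the gene from 5′ to 3′. Capitals mark the GC box GGGCGG and the CCAAT box, each on either strand, so that CCGCCC and ATTGG are also marked. Itga2 is at chr2:48354510-48354759 on the minus strand, Lama5 at chr3:187695975-187696224 on the minus strand, Lamb3 at chr13:107362303-107362552 on the plus strand, Lamc1 at chr13:68051987-68052236 on the minus strand and Sdc1 at chr6:37281791-37282040 on the plus strand.
Itga2: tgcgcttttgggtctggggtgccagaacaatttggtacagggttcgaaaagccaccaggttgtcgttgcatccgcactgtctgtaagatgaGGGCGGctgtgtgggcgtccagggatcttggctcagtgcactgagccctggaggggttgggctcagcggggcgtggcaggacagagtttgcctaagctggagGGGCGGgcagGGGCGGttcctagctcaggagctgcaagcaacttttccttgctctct
Lama5: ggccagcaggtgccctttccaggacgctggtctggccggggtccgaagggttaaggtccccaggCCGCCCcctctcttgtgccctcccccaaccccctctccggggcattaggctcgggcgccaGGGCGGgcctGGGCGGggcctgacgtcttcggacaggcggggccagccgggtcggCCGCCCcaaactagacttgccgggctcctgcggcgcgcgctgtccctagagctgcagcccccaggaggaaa
Lamb3: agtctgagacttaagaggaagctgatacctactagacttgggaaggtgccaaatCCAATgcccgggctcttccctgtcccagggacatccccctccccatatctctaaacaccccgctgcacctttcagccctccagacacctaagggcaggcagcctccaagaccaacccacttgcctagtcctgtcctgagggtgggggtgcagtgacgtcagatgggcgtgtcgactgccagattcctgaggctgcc
Lamc1: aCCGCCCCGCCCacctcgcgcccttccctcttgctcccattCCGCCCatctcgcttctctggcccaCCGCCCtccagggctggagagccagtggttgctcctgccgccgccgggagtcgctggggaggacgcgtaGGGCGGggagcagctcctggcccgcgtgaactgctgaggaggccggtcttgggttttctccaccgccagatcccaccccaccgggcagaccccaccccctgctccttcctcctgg
Sdc1: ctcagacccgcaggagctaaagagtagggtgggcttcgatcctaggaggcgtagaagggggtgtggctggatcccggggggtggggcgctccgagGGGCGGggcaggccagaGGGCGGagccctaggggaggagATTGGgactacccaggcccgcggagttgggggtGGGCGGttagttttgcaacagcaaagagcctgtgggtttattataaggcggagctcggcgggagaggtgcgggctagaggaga
The GC box occurred 3 times before Itga2, 4 times before Lama5, 5 times before Lamc1, with 2 of these overlapping, and 3 times before Sdc1, and 0 times before Lamb3. It was found in 11 of the 20 family windows and in 30.5% of all 33469 windows of this length. The CCAAT box was found in 3 of the 20, among them Lamb3 and Sdc1, and in 34% of all windows. Each motif was counted on its own on both strands, overlapping matches included. Of the other motifs searched, TATAAA was found in 1 of the 20 (Itgb7) and in 12.9% of all windows. TGANTCA, the AP-1 motif, was also found in 1 of the 20 (Lama3), and in 6.34% of all. The GC content was 60% before Itga2, 58.4% before Lamb3 and 72.8% before Lama5, against a median of 51.2% over all windows and 61% over the 20. The GC box was also present where arrays overlapped, 4 times before Itgb1 and 5 times before Sdc4. These are matches of letters only.

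Among the laminin chains, Lama5 and Lamc1 had the largest differences between the F+ and F- groups, though neither passed. All 7 chains had a higher mean in the F+ than in the F- group. Only 3 of the 7 had a higher mean in the F+ than in the sham group, against 47.5% of all features. In the F- group 1 of the 7 was above the sham group, against 48.2%. Lama5 encodes the alpha chain of a laminin of vessel walls and epithelia. Its deposited value was 64.5, 68.1 and 59.2 in F+, 56.8, 49.6 and 46.2 in F- and 54.4, 48.7 and 51.7 in sham. The F+ arrays did not overlap with the others, and F- array 1 was the nearest to them. The means were 63.9 ± 4.48 (SD, n = 3), 50.9 ± 5.41 (SD, n = 3) and 51.6 ± 2.85 (SD, n = 3). The difference between the F+ and sham groups was 0.31 on the log2 scale (SE 0.085, limma adjusted p = 0.604). The F+ group was higher than the F- group by 0.33 on the log2 scale (SE 0.085, limma adjusted p = 0.577), which is 1.26-fold, or 1.82-fold if the values were squares of log2 intensities. An exact permutation test, two-sided, returned p = 0.1, and no lower p is possible with 3 arrays against 3. Without F- array 1 the difference between the F+ and F- groups was 0.42 (limma adjusted p = 0.119, with 0.119 to 0.901 over all settings). Without F- array 3 it was 0.27 (limma adjusted p = 0.901).

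Lamc1 encodes the gamma chain shared by most laminin trimers. Its value was 107.5, 111.7 and 108 in F+, 106.7, 101.6 and 98.3 in F- and 98.8, 98.7 and 98.4 in sham. The sham arrays were almost level, the F- arrays were spread, and each F+ array lay above all others. The difference between the F+ and sham groups was 0.14 on the log2 scale (SE 0.034, 95% CI 0.066 to 0.22, limma adjusted p = 0.60), and that between the F+ and F- groups was 0.094 (SE 0.034, adjusted p = 0.651). These are 1.11-fold and 1.07-fold, or 1.43-fold and 1.26-fold if the values were squares of log2 intensities. The F- group was 0.050 above the sham group (SE 0.034, limma adjusted p = 0.754), which was 0.019 without F- array 1 and 0.078 without F- array 3. Without F- array 1 the difference between the F+ and F- groups was 0.13 (limma adjusted p = 0.20, with 0.20 to 0.901 over all settings). Without F- array 3 it was 0.067 (limma adjusted p = 0.901).

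Lamb2, the beta chain of vessels, muscle and neuromuscular junctions, gave 100.1, 99.5 and 96.1 in F+, 93.4, 100.1 and 100.1 in F- and 109.7, 100.2 and 100.4 in sham. Both banded groups lay below all sham arrays, with highest values of 100.1 against a lowest sham value of 100.2, and sham array 1 and F- array 1 were at the extremes. The difference from the sham group was -0.079 in the F- group (SE 0.046, limma adjusted p = 0.743) and -0.068 in the F+ group (SE 0.046, adjusted p = 0.745). Leaving out sham array 1 gave -0.036 for the F- group, and leaving out F- array 1 gave -0.046. Lamb3, the beta chain of the laminin of skin, lay within a narrow range, with 30, 30.5 and 30.6 in F+, 29.3, 28.7 and 29.8 in F- and 29.3, 29.8 and 29.2 in sham. Its F+ arrays did not overlap with the others, at a difference of 0.053 from the F- group (SE 0.025, limma adjusted p = 0.676).

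The remaining chains, Lama1, Lama3 and Lamc3, had overlapping F+ and F- arrays. Lama1, an alpha chain of the embryo and kidney, was 22.9 to 24.8 in F-, 24.4 to 24.8 in F+ and 24.9 to 25.2 in sham. Its F- group was lower than the sham group by 0.062 on the log2 scale (difference -0.062, SE 0.032, limma adjusted p = 0.743), and the difference was -0.028 without F- array 2. Lamc3, a gamma chain found in few tissues, had 29.2 to 30.5 in F- and 30.5 to 32.7 in sham, a difference of -0.067 (SE 0.034, limma adjusted p = 0.743) that was -0.037 without sham array 1. Lama3, an alpha chain of skin, was 26.6 to 26.8 on all arrays except F- array 1, at 25.5.

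Among the collagen-binding integrin subunits, Itga2 had F+ arrays above all others, and the arrays of its neighbour Itga1 overlapped. Itga2 encodes a collagen receptor of platelets, epithelia and fibroblasts. It gave 44.5, 41.6 and 40.3 in F+, 37.1, 39.5 and 37.2 in F- and 37.1, 37.8 and 34.6 in sham. All F+ arrays were higher than any other array, and the F- and sham arrays overlapped. The difference was 0.21 from the sham group (SE 0.050, 95% CI 0.090 to 0.32, limma adjusted p = 0.60) and 0.15 from the F- group (SE 0.050, adjusted p = 0.635). The latter is 1.11-fold, or 1.26-fold if the values were squares of log2 intensities.

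Itga1, which encodes a collagen receptor of smooth muscle and fibroblasts, lies next to Itga2 on chromosome 2 in the RefSeq annotation, with no protein-coding gene between them. It was 84.7 to 86.8 over all 9 arrays, and its F+ group differed from the F- group by 0.013 (95% CI -0.036 to 0.063). Itga11, the collagen receptor of fibroblasts, had 31.5 to 35 in F+, 30.9 to 34.3 in F- and 32 to 32.9 in sham, which overlapped. Itga10, a collagen receptor of cartilage, lay between 24.1 and 25.7 over all arrays.

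**Figure D3:**
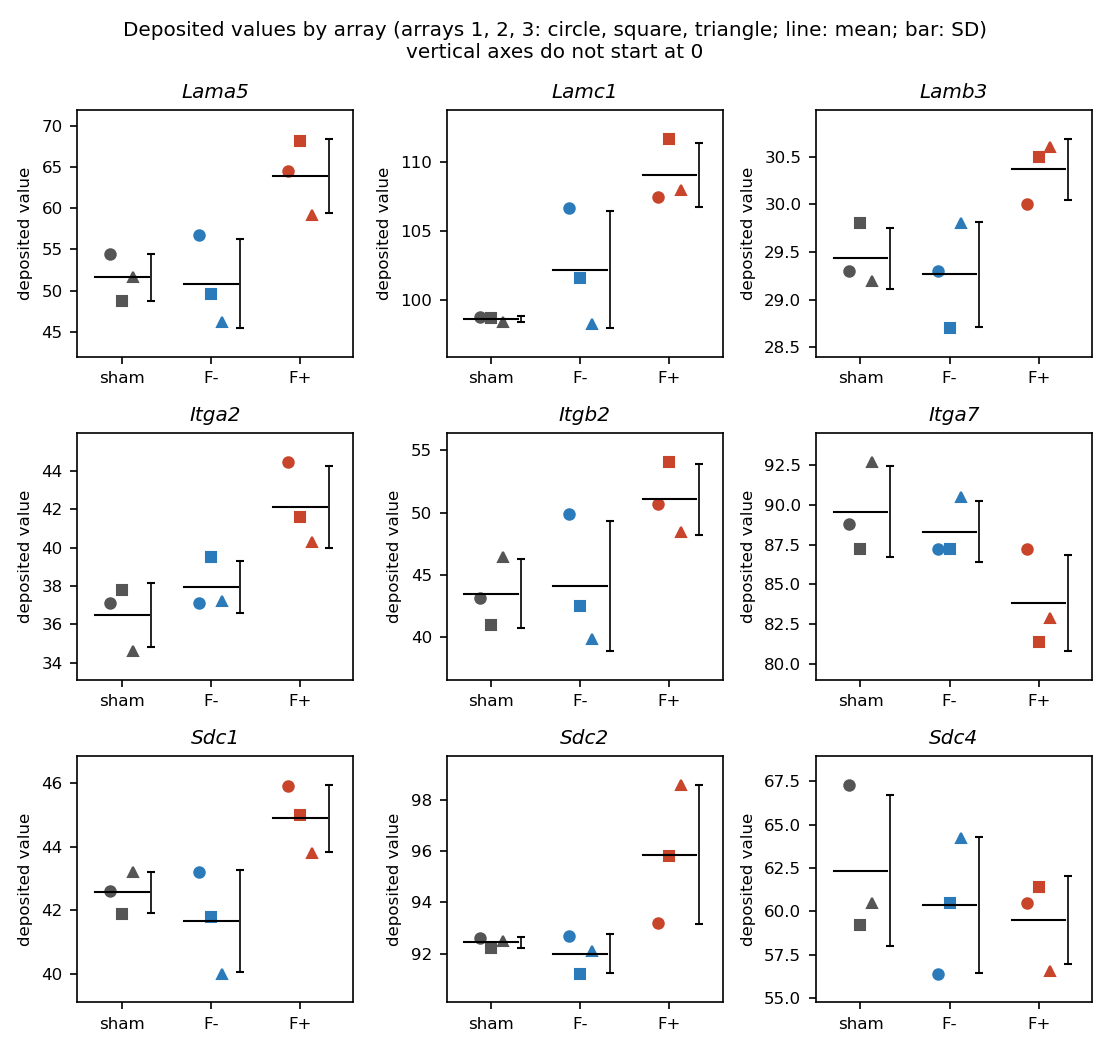
Deposited values (vertical axes, not starting at 0) of 9 genes on each array of the sham, F- and F+ groups. The symbol gives the array number (circle 1, square 2, triangle 3), a line the mean and a bar the SD. The F+ arrays of Lama5, Lamc1, Lamb3, Itga2, Sdc1 and Sdc2 lie above all other arrays, and those of Sdc4 overlap with them.

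The laminin-binding alpha subunits Itga7 and Itga6 had lower values in the F+ than in the F- group, and neither passed. Itga7 encodes the main laminin-binding alpha subunit of adult heart and skeletal muscle. It gave 87.2, 81.4 and 82.9 in F+, 87.2, 87.2 and 90.5 in F- and 88.8, 87.2 and 92.7 in sham. F+ arrays 2 and 3 were lower than every other array, and F+ array 1 was level with the lowest of the other groups. The F+ group differed from the sham group by -0.096 (SE 0.037, 95% CI -0.18 to -0.0099, limma adjusted p = 0.655), and from the F- group by -0.075 (SE 0.037, adjusted p = 0.683). Itga7 was the only 1 of the 27 with a lower value at an unadjusted p under 0.05 in any of the 3 comparisons. Itga6, the laminin receptor of endothelium and epithelium, was 82.1, 80.4 and 82.9 in F+ and 85.1, 84.5 and 83.2 in F-, which did not overlap, and 81.8 to 83.2 in sham. The F+ group differed from the F- group by -0.043 (SE 0.024, limma adjusted p = 0.708), and the F- from the sham group by 0.032 (SE 0.024, limma adjusted p = 0.762). Itgb4, which pairs with the Itga6 product in epithelial attachment plaques, was 38.7 to 40.2 in F-, 40.2 to 40.9 in F+ and 40.2 to 42.5 in sham. Its F- group differed from the sham group by -0.053 (SE 0.030, limma adjusted p = 0.743), or by -0.027 without sham array 2.

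Itgb1, the beta subunit that pairs with nearly all of these alpha subunits in the heart, was 112.4, 116.9 and 117.6 in F+ and 109.5, 108.1 and 109.5 in sham, which did not overlap. On the F- arrays it was 117.8, 108.5 and 109.2, so that F- array 1 was the highest of all and the other F- arrays were level with the sham arrays. The difference between the F+ and sham groups was 0.085 (SE 0.037, 95% CI -0.0016 to 0.17, limma adjusted p = 0.670). Itga5, its fibronectin-binding partner, overlapped in all groups, with 75.7 to 77.9 in F+, 74.3 to 76.2 in F- and 73 to 78.9 in sham. The vitronectin receptor subunit Itgb5 had 72.6 to 77.7 in the F+ group and 72.8 to 77.8 in the sham group, with a difference between the F+ and F- groups of 0.0071 (95% CI -0.077 to 0.091).

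Itgb3, which forms the fibrinogen receptor of platelets and a vitronectin receptor of other cells, gave 37.8, 42.5 and 40 in F+, 38.3, 35.9 and 35.5 in F- and 39.5, 36.9 and 36.4 in sham. The groups overlapped, and the difference between the F+ and F- groups was 0.13 (SE 0.054, limma adjusted p = 0.671). The 3 platelet marker genes measured were all higher in the F+ than in the F- group, but only 1 of 3 was without F- array 1, with summed values of 86.5 to 89.0 in F+, 80.6 to 84.6 in F- and 86.1 to 91.2 in sham. The part of platelets in the values of Itgb3 and Itga2 was not tested. Itgb6 and Itgb8, both of which can release active TGF-β from its latent form, overlapped between groups. Itgb6 was 20 to 25.3 over all arrays. Itgb8 was 46.4, 45.9 and 50.3 in F- and 48.9 to 51.7 in sham, a difference of -0.087 (SE 0.049, limma adjusted p = 0.743), with 47.2 to 51.9 in F+.

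Itgb2 had its higher values on the arrays with high macrophage genes. Itgb2, the beta subunit of the integrins by which leukocytes leave the blood, was 50.7, 54.1 and 48.4 in F+, 49.9, 42.5 and 39.8 in F- and 43.1, 40.9 and 46.4 in sham. The F+ arrays lay above all sham arrays but overlapped with F- array 1. The difference was 0.22 from the F- group (SE 0.088, limma adjusted p = 0.671) and 0.23 from the sham group (SE 0.088, adjusted p = 0.651). The former is 1.16-fold, or 1.43-fold if the values were squares of log2 intensities. Without F- array 1 the difference from the F- group was 0.31 (limma adjusted p = 0.189, with 0.189 to 0.901 over all settings). Without F- array 3 it was 0.15 (limma adjusted p = 0.901). Of 9 macrophage and myeloid marker genes, 8 had a higher mean in the F+ than in the F- group, against 48.2% of all features. The median difference was 0.23, and 0 passed over all features. The other marker, Ptprc, was 53.9 to 58.4 in F+, 51.1 to 60.5 in F- and 50.6 to 56.1 in sham. Without F- array 1, all 9 had a higher mean, with a median difference of 0.36, and again 0 passed. Their summed value was 574.7 to 605.7 in F+, 577.0 on F- array 1, 475.4 and 476.2 on the other F- arrays and 478.3 to 509.6 in sham. Since the lowest deposited value over all features is 1, the values do not show by themselves whether each marker was detected. In whole ventricle, the number of leukocytes and the RNA per leukocyte cannot be told apart, and the part of these cells in the values of Itgb2 was not tested.

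Itga4, which binds VCAM-1 on activated vessels, was 31.2, 29.6 and 32.7 in F+, 30.4, 29 and 24.5 in F- and 30, 29.5 and 26.9 in sham, and the groups overlapped. Its difference between the F+ and F- groups was 0.16 (SE 0.084, limma adjusted p = 0.698). Itgb7, a lymphocyte subunit, was 29.3 on F- array 1 and 24.2 to 26.9 on all other arrays. The 4 lymphocyte markers measured had summed values of 107.0 to 111.2 in F+, 101.8 to 110.4 in F- and 104.9 to 109.2 in sham.

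Of the syndecans, Sdc1 and Sdc2 had F+ arrays above all other arrays, and Sdc3 and Sdc4 did not. Sdc1 is a syndecan of epithelia that is known to appear in injured heart. It gave 45.9, 45 and 43.8 in F+, 43.2, 41.8 and 40 in F- and 42.6, 41.9 and 43.2 in sham. The nearest values were 43.8 on F+ array 3 and 43.2 on F- array 1 and sham array 3. The difference was 0.11 from the F- group (SE 0.035, 95% CI 0.028 to 0.19, limma adjusted p = 0.633), which is 1.08-fold, or 1.19-fold if the values were squares of log2 intensities. From the sham group it was 0.077 (SE 0.035, adjusted p = 0.676). Without F- array 1 the difference from the F- group was 0.14 (limma adjusted p = 0.23, with 0.23 to 0.901 over all settings). Without F- array 3 it was 0.079 (limma adjusted p = 0.901). Sdc2, a syndecan of fibroblasts and other mesenchymal cells, was 93.2, 95.8 and 98.6 in F+, 92.7, 91.2 and 92.1 in F- and 92.2 to 92.6 in sham. The difference was 0.059 from the F- group (SE 0.027, limma adjusted p = 0.674) and 0.052 from the sham group (SE 0.027, adjusted p = 0.697). Without F+ array 3, the highest, these were 0.039 and 0.032.

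Sdc4, which joins integrins in focal adhesions, was 60.5, 61.4 and 56.6 in F+, 56.4, 60.5 and 64.2 in F- and 67.3, 59.2 and 60.5 in sham. The groups overlapped, and the F+ and F- groups differed by -0.020 (95% CI -0.17 to 0.13). Sdc3, best known from nerve tissue, had 82.5 to 85.3 in F+, 78.9 to 82.7 in F- and 80.1 to 83.6 in sham, with a difference between the F+ and F- groups of 0.043 (95% CI -0.028 to 0.11).

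**Figure D4:**
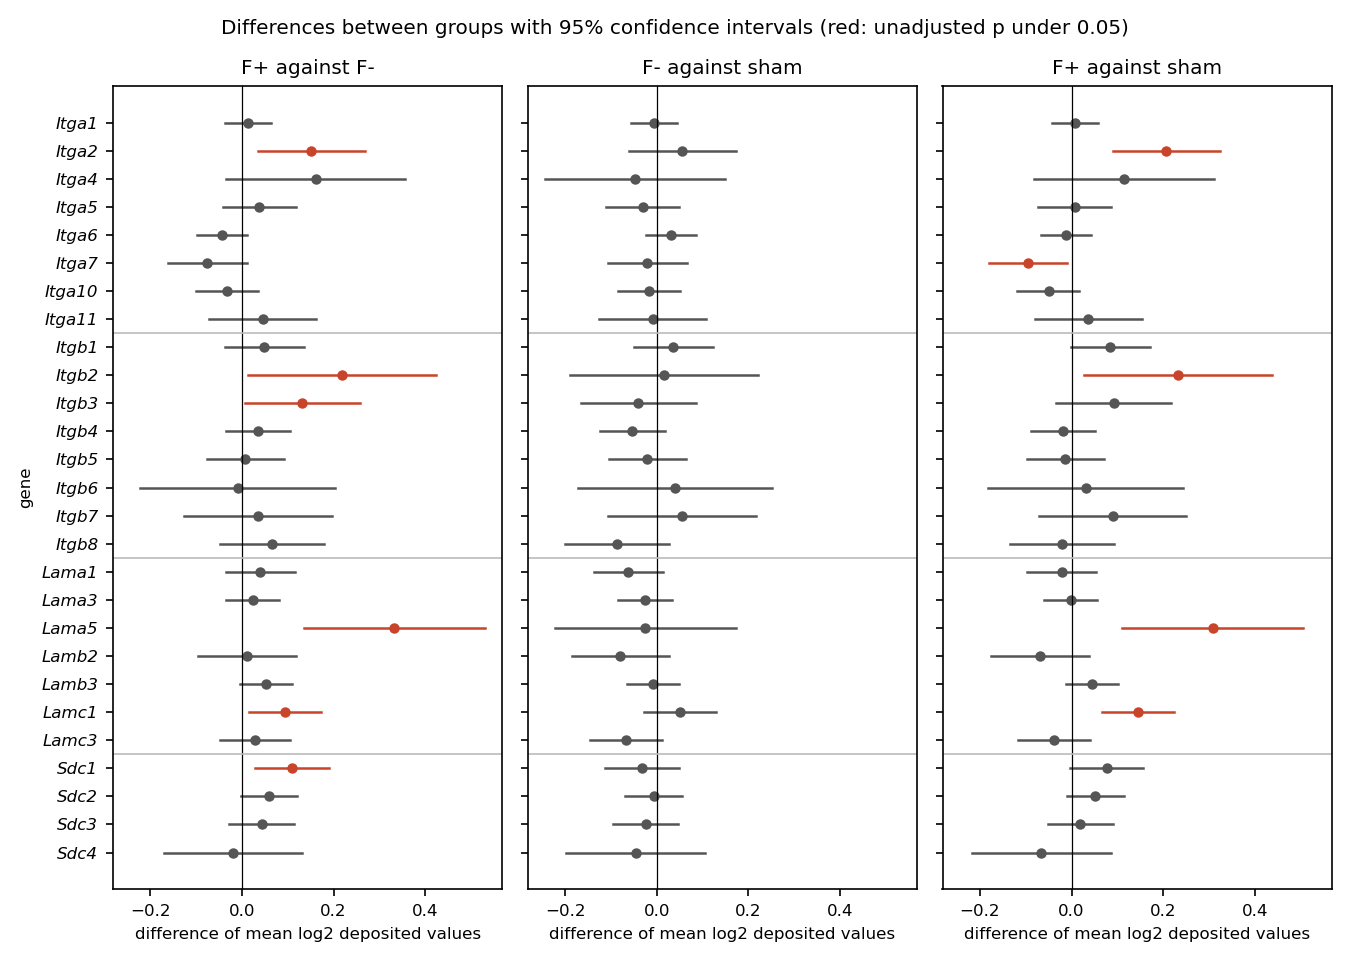
Differences of mean log2 deposited values (horizontal axes) for the 27 genes in the 3 comparisons, as points with 95% CIs as lines. Red marks an unadjusted p under 0.05 from limma, which 6 genes reached for F+ against F-, 0 for F- against sham and 5 for F+ against sham.

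In the F- group, banded but below the fibrosis limit, no gene stood clear of the sham group by the test. Of the 27, 7 had a higher and 20 a lower mean in the F- group, against 48.2% of all features higher, with a median difference of -0.021. None passed in limma, where 0.00% of all features passed, and at an unadjusted p under 0.05, 0 had higher and 0 had lower values, against 3.07% and 2.96% of all features. The arrays did not overlap in 2 of the 27, Lama1 and Lamb2, both with F- below sham, against 4.64% of all features, and no gene had F- above sham, against 5.15%. The differences ran from -0.087 for Itgb8 to 0.056 for Itga2. Itga2 had 37.1 to 39.5 in F- and 34.6 to 37.8 in sham, which overlapped. Its difference (SE 0.050, limma adjusted p = 0.783) was 0.018 without sham array 3, 0.027 without F- array 2 and 0.098 without both sham array 2 and F- array 1.

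Between the F+ and sham groups, 16 of the 27 had a higher mean, against 47.5% of all features, with a median difference of 0.019. None passed in limma, where 0.00% of all features passed. At an unadjusted p under 0.05, 4 had higher values (Lamc1, Itga2, Lama5 and Itgb2) and 1 had a lower value (Itga7), against 3.50% and 3.90% of all features. Leaving F- array 1 out of the fit, which changes only the estimate of the spread here, made the 4 into 7. The share over all features in that fit is not given here. Without sham array 2 the differences were 0.27 for Lama5 and 0.19 for Itgb2, with a limma adjusted p of 0.772 for both. The F+ arrays lay above all sham arrays in 9 of the 27, against 5.69% of all features, and below them in 2, Lama1 and Lamb2, against 6.56%. The F+ against F- and F- against sham comparisons share the F- arrays. With folds from log2 of the deposited values, no gene passed a 1.5-fold difference in any of the 3 comparisons, where 0.414%, 0.555% and 0.462% of all features did. If the values were squares of log2 intensities, Lama5 would pass it in the F+ group, at 1.82-fold against F- and 1.75-fold against sham. The share of all features on that reading is not given here. F- array 3 held the lowest of the 9 values in 9 of the 27 genes.

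The partners of these genes, in lists chosen together with the genes, had few clear differences between the F+ and F- groups, and 0 passed over all features in any list. Of 12 ligands of integrins and syndecans measured, 11 had a higher mean in the F+ group, against 48.2% of all features, with a median difference of 0.099. At an unadjusted p under 0.05, 1 of the 12 had a higher value, against 3.65% of all features, and without F- array 1 it was 5 of the 12, against 1524 of the 29215 features. The 1 was Vcam1, the vessel-wall ligand of the Itga4 integrin, with 44.2, 46.8 and 41.9 in F+, 36.4, 36.4 and 35.7 in F- and 37.9, 38.6 and 35.8 in sham. Its F+ arrays lay above all others, F- array 1 included, at a difference of 0.29 from the F- group (SE 0.046, limma adjusted p = 0.402). Icam1, a vessel-wall ligand of the Itgb2 integrins, was 50.1, 48.3 and 42.8 in F+ and 41.3 to 43.7 in F-, which overlapped. Fn1, which encodes fibronectin, was 89.7 on F- array 1, within the 82.2 to 96.6 of the F+ arrays.

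Of 4 integrin alpha subunits outside the rule, 3 had a higher mean in the F+ group, and 2 without F- array 1. Itgam, the macrophage and neutrophil partner of Itgb2, was 35, 36.1 and 32.9 in F+ and 30.7 to 32.4 in F-, a difference of 0.15 (SE 0.042, limma adjusted p = 0.601). Itgad, another partner of Itgb2, was 28.9 to 33.3 in F+ and 28.3 to 38.9 in F-. Of 21 adaptors and kinases that sit behind integrins, 15 had a higher mean in the F+ group, with a median difference of 0.028. Actn1, which cross-links actin at adhesions, was 60.5 to 64.4 in F+, 52.2 to 57.4 in F- and 51.1 to 57.4 in sham (difference between F+ and F- 0.18, SE 0.056, limma adjusted p = 0.624). Flna, which encodes filamin A, an actin-binding partner of integrin tails, was 74.2 to 82.2 in F+ and 68.9 to 76.3 in F-, which overlapped.

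All 13 genes of heparan sulfate synthesis, shedding and syndecan binding that were measured had a higher mean in the F+ group, against 48.2% of all features, with a median difference of 0.033. At an unadjusted p under 0.05, 4 of the 13 had higher values, against 3.65% of all features. Without F- array 1 these counts were again 13 and 4, against 13896 and 1524 of the 29215 features. Sulf1, which trims sulfate from heparan sulfate chains, was 65.1, 69.9 and 66 in F+, 58.7 to 61.2 in F- and 52.4 to 58.9 in sham. Its difference from the F- group was 0.15 (SE 0.048, limma adjusted p = 0.624), and its arrays did not overlap. Hs2st1, which adds sulfate to the same chains, was 46.2 to 47.9 in F+ and 43.4 to 45.3 in F-, and 46.2 on all sham arrays.

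Of 12 listed genes of the dystroglycan complex, the other laminin receptor of muscle, 6 were measured. These were Dmd, Utrn, Sgca, Sgcd, Sgce and Sntb1, without Dag1, the gene of dystroglycan itself. Of the 6, 2 had a higher and 4 a lower mean in the F+ than in the F- group, with a median difference of -0.033. Sgcd, which encodes delta-sarcoglycan, was 66.6, 62.3 and 68.6 in F+, 69.6 to 72.9 in F- and 70.6 to 75.3 in sham (difference from the F- group -0.12, SE 0.043, limma adjusted p = 0.648). Sgca, which encodes alpha-sarcoglycan, was 96 to 100.9 in F+ and 100.8 to 109.7 in F-, a difference of -0.11 (SE 0.038, adjusted p = 0.651). Of 12 listed basement membrane partners of laminin, 5 were measured, and 3 of these had a higher mean and 2 a lower mean. Agrn, which encodes agrin, was 62.8 to 65.7 in F+ and 58.2 to 62.8 in F-, and Col4a3, a collagen IV chain, was 42.4 to 46.1 and 45 to 48.1.

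Markers of vessel and connective tissue cells were set beside the laminin and syndecan values. The summed value of 6 smooth muscle and pericyte markers was 453.4 to 469.6 in F+, 435.1 to 443.0 in F- and 443.3 to 450.8 in sham, and all 6 had a higher mean in the F+ than in the F- group. The 5 endothelial markers summed to 391.8 to 399.9 in F+, 380.4 to 393.1 in F- and 388.8 to 399.8 in sham, with 4 of 5 higher in the F+ than in the F- group. The 7 fibroblast markers summed to 554.5 to 596.0, 565.3 to 581.1 and 555.8 to 597.5 on the same arrays, which overlapped. The 8 cardiomyocyte markers summed to 1183.6 to 1201.6 in F+, 1204.9 to 1213.4 in F- and 1176.7 to 1205.0 in sham. The F+ sums lay within the sham range, and 7 of 8 markers had a lower mean in the F+ than in the F- group, with a median difference of only -0.0082. The 4 red cell genes summed to 150.7 to 257.5 in F+ against 100.2 to 128.0 on the other arrays. The 5 mast cell genes summed to 131.4 to 160.4 against 119.7 to 132.7, which overlapped. Of these 5, 4 had a higher mean in the F+ than in the F- group, and Kit had a lower mean. Cpa3, 1 of the 4, was 50 on F+ array 2 and 17.6 to 30.7 on all other arrays. The epithelial and Schwann cell genes overlapped, with sums of 107.2 to 116.7 and 56.1 to 60.0 over all arrays, and the 4 atrial genes reached 486.6 on sham array 2 against 201.8 to 294.9 elsewhere. Whether each marker of these lists was detected is not shown by its values alone. The part of these cells in the values of Lama5, Lamc1, Sdc2 and Itga7 was not tested.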

How the data were processed

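RNA of 9 right ventricle samples was hybridised by the authors to Affymetrix Rat Gene 1.0 ST arrays, 3 each for the sham, F- and F+ groups, which were taken from the sample titles. The authors deposited 1 table of signal values, but the sources used here do not give their summarisation, normalization or scale. Array medians lie between 33.4 and 33.9, so the values were taken as normalized between arrays. Extraction and labelling are named differently in the labels (Sepasol, biotinylated cRNA) and the methods (TRIzol, sense-strand cDNA).

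Of 29215 features, 15310 carried 1 gene symbol in the platform annotation, 323 carried several and 13582 were not listed. Each of the 27 genes had 1 feature, and the gene IDs of 27 gave the same symbol in RefSeq for GRCr8. All features were fitted on log2 values by lmFit and eBayes of limma 3.58.1 under R 4.3.3, using 1 mean per group over 9 arrays and Benjamini-Hochberg adjustment at 0.05 over all features. Single genes were also compared by an exact two-sided permutation test over arrays. Higher and lower counts and medians over the genes are descriptions without a test. The fit was tested on simulated data. Promoter windows came from a RefSeq table of GRCr8, whose strand was checked on 1883 overlapping opposite windows, all reverse complements. Python 3.11.15 and its matplotlib 3.10.9 made the plots.

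The members, partner lists, markers and tests were chosen with earlier results of these data known. Values with a difference and test were given for the 8 genes of the largest moderated statistic in each comparison, and array values for these, the syndecans, subunits known from heart and basement membrane, Itgb2 and the 3 genes of highest and of lowest mean. Up to 2 partner genes per list were named by the same statistic. The other genes given, among them Itga4, Itga11, Itgb7, Lama3, Fn1, Bmp10, Nppa, Postn and Tnnt2, and the differences for Itga1, Itga4, Itgb5, Sdc3 and Sdc4, were chosen after their values were seen. Alternatives were a replicate block, quantile normalization, centring on array medians, dropping the 33.3% of features with the lowest means, restricting the fit to features with 1 symbol, only the 2 groups compared, a variance trend with robust priors, square roots, untransformed values, each array left out in turn, and a fit without both sham array 2 and F- array 1. Counts of the partner and marker lists without F- array 1 were added after the values were seen. The number of arrays limits the precision.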

Additional observations from a re-analysis of the deposited data

How the results depend on the processing

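Of the 24 differences tested for the leading genes, 23 kept their direction under all 19 settings run. That of Lama1 for F- against sham kept it under the 18 that held the gene, which is among the dimmest 33.3% of features. No gene passed in any setting, with 25 of the 27 genes tested in the setting without those features and 27 in the others. Some settings could not turn a direction. The replicate block, dropping features, only the 2 groups compared, and the trend with robust priors leave each difference as it was. So does leaving out an array of the group not compared. The leading genes were also picked by the size of their statistic in these same data. The number of features passing for F+ against F-, 1 in the fit reported, was 3 without the dimmest 33.3% of features, 3 with only features of 1 symbol, 3 with trend and robust priors, 3 for untransformed values, 3 without sham array 2 and F- array 1, 0 with the replicate block, 0 with only the 2 groups compared, and 0 to 3 with each array left out in turn. For F+ against sham it was 1 with only the 2 groups compared and 1 without sham array 2 and F- array 1, against 0. The genes with an unadjusted p under 0.05 and higher values, a count added after seeing the data, were 3 against 6 for F+ against F- with only the 2 groups compared, and 3 to 8 with each array left out. For F+ against sham they were 7 against 4 with only the 2 groups compared, 7 for untransformed values, and 3 to 7 with each array left out. Shares over all features are not given beside these counts, apart from that for F+ against F- without F- array 1. The median difference over the genes for F+ against F- was 1.03 for untransformed values, a unit of its own. For F- against sham it was -0.012 with median centring and -0.027 to -0.0059 with each array left out, and for F+ against sham it was 0.028 without sham array 2 and F- array 1 and 0.0081 to 0.028 with each array left out. The causes were not tested. Deviations from the group means had correlations of -0.205 to 0.0532 for same-numbered arrays and -0.115 to 0.264 for the others. With only 3 arrays behind each mean, these values cannot show whether the numbers pair arrays. The mean over all single-symbol features of a gene gave no other value, since each gene had 1 such feature. A further feature that carries Lamc3 with another symbol was not used. With 3 arrays per group, the number of arrays limits what differences the test can show.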
